A study of Rattus norvegicus with 39 samples.

Results

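Oxidative phosphorylation is carried out in the inner mitochondrial membrane by 5 protein complexes, and the genes of their subunits were followed here in rat liver. The genes were chosen by name alone, as all genes whose symbol on the array begins as those of NADH dehydrogenase (Nduf with a, b, c, s or v and a digit), succinate dehydrogenase (Sdha to Sdhd), ubiquinol cytochrome c reductase (Uqcr), cytochrome c oxidase (Cox4 to Cox8) or ATP synthase (Atp5). The choice gave 79 genes of the 14217 genes measured, through 88 probe sets that carry 1 symbol each. A further 7 probe sets with a matching symbol carried several symbols and were left out. Complex I had 34 of the genes, complex II 4, complex III 7, complex IV 18 and complex V 16. Ndufa4, once assigned to complex I, was counted with complex IV. Of the 79 genes, Atp5if1 encodes an inhibitor of ATP synthase and no subunit, Cox6c-ps1 is named as a pseudogene, Cox7a2l encodes a factor that joins complexes into supercomplexes, and Ndufa4l2 is a paralogue of Ndufa4.

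Total RNA of 1 liver lobe, the left lateral, was hybridised to 39 Affymetrix GeneChip Rat230 arrays (version 2), 1 for each rat, 48 h after treatment, in rats 5 to 6 weeks old. ANIT (125 mg/kg in corn oil), DMN (15 mg/kg in water), DNP (15 mg/kg in water) and Roziglitazone (1000 mg/kg in methylcellulose), the labels' spelling of rosiglitazone, were given by mouth, and Caerulein (50 µg/kg in saline) and NMF (1000 mg/kg in saline) were injected into the peritoneum. Each of the 6 compounds had 5 rats, and 9 control rats were untreated. The labels name no vehicle for the controls, so a difference from control takes compound, vehicle and route together, and all 6 such comparisons share the same 9 controls. P-values measure the spread between these rats. The usual readings of the abbreviations, which the labels do not spell out, are alpha-naphthylisothiocyanate, a bile duct and hepatocyte toxicant, dimethylnitrosamine, a hepatotoxic nitrosamine, dinitrophenol, a chemical uncoupler of mitochondria, and N-methylformamide, a hepatotoxic solvent. Caerulein is an analogue of cholecystokinin that acts on the pancreas, and rosiglitazone is an agonist of PPAR gamma.

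As background, complexes I and II pass electrons from NADH and succinate to ubiquinone, complex III passes them on to cytochrome c, and complex IV hands them to oxygen. Complexes I, III and IV pump protons as they do so, and complex V lets the protons flow back to make ATP. The hepatocyte is rich in mitochondria and draws on this ATP for urea synthesis, gluconeogenesis and transport. A few further subunits are encoded by mitochondrial DNA and carry other symbols.

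Promoter sequences in the RefSeq table (build GRCr8, 250 bases before to 50 after each start site) were found for 71 of the 79 genes. Motifs of 4 factors that are known to act on nuclear genes of mitochondrial proteins were searched on both strands. The NRF1 core GCGCATGCG was present in 5 of the 71 promoters (7.04%) and in 1.52% of all 33469 promoters in the table. The ETS core CCGGAAG, to which GABP binds, was in 20 (28.2%) against 8.75% of all. The YY1 motif AAGATGGCG was in 10 (14.1%) against 1.73%, and the estrogen-related receptor motif TCAAGGTCA was in 2 (2.82%) against 0.433%. No motif contains another, though the ETS and YY1 motifs can overlap by the letters AAG. The median GC content was 56.0% in the 71 promoters and 51.7% in all. A match is a description of letters and not of binding. The promoters of 4 genes whose levels differed from control are shown, with the matched motifs in capitals. Atp5if1 is the inhibitor gene that was higher in 3 groups (chr5:150026628-150026927, minus strand), Uqcrc2 (chr1:184598990-184599289, plus strand) and Sdha (chr1:30764303-30764602, plus strand) were lower after ANIT, and Ndufs4 (chr2:47794865-47795164, minus strand) was higher after DMN.
Atp5if1: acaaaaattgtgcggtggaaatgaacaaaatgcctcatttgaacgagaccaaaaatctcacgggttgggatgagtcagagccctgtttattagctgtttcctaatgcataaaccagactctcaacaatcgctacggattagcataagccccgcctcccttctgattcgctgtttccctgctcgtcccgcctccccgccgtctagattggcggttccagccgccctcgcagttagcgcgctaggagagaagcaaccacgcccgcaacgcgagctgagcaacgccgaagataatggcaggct
Uqcrc2: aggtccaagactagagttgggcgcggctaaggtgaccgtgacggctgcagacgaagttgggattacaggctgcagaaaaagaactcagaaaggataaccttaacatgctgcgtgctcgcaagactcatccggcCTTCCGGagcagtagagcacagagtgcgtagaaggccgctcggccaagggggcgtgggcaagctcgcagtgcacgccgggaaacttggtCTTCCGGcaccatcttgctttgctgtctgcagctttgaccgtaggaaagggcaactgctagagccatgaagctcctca
Sdha: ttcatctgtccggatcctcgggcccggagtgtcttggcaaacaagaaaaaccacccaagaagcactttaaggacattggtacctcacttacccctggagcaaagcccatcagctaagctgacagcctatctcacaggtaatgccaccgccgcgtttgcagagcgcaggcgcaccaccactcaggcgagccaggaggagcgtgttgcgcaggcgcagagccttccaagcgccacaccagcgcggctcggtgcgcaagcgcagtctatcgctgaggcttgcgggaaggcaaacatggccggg
Ndufs4: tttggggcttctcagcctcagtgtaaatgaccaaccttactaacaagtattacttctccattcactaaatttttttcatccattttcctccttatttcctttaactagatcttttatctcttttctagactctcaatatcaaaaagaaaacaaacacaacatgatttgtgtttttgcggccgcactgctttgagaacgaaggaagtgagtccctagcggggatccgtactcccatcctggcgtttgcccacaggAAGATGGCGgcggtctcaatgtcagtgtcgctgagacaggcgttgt
The windows of Atp5if1 and Sdha held no match to the 4 motifs, that of Uqcrc2 held 2 ETS matches, both on the reverse strand (CTTCCGG), and that of Ndufs4 held 1 YY1 match.

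Values are log2 of the deposited intensity, and a level of one gene cannot be set against that of another because probe sets differ in how well they bind. Of the 79 genes, 70 had a mean above 9, while the means of Cox6a2, Cox6b2 and Cox7b2 lay inside the range of 26 of the 27 poly-A spike probe sets (3.49 to 4.70), which stand for background here. A gene was called where limma's Benjamini-Hochberg adjusted p, over all 14217 genes, was under 0.05. Liver was sampled as a whole, so fewer cells of a type and less RNA per cell cannot be told apart. Hepatocyte markers were high on every array: their summed intensity over 11 genes ran from 114947 to 155300.

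Some arrays stood apart before any comparison. The array labelled ANIT 3 deviated from the other arrays in the way of the DMN group (correlation across genes 0.705) more than in that of its own group (0.301), Roziglitazone 2 in the way of ANIT (0.802, own group −0.303), and DMN 2 in the way of no group (highest 0.120, own group 0.0034). These 3 arrays, whose labels earlier work on the data had doubted, are called arrays of doubtful label. They were not the only ones: 15 of the 39 arrays deviated most in the way of their own group, and the other 24 lay mostly in control, Caerulein, DNP and Roziglitazone. NMF 3 (0.180 with ANIT, own group 0.157) and NMF 4 (0.338 with ANIT, own group 0.289) were among the 24 as well. On 8 arrays (ANIT 5, DMN 3, DNP 1, NMF 3, Roziglitazone 1 and control 1, 4 and 5) the 5′ probe set of GAPDH lay 1.37 to 6.07 below the 3′ probe set on the log2 scale, a difference often read as a sign of RNA quality, against 0.07 to 0.89 below on the other 31. The 8 were not alike. On control 5, DNP 1 and Roziglitazone 1 the 3′ probe set was low as well, at 8.09, 9.99 and 10.84. It lay at 12.66 to 13.27 on all other arrays.

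Few of the genes of oxidative phosphorylation differed between the 7 groups past the test's threshold. An F test over the groups called 5 of the 79 genes (Atp5if1, Ndufv3, Sdha, Ndufa11 and Atp5pb), against 19.5% of all genes; without the 8 arrays low in GAPDH 5′ signal it called 3, without ANIT 5 it called 2, without DMN 3 it called 3, and without control 5 it called 8. ANIT against control called 9 of 79 genes (11.4%), 8 lower and 1 higher, where 16.5% of all genes were called (8.29% lower, 8.19% higher). DMN called 3 (3.80%), 2 higher and 1 lower, where 10.4% of all genes were called (5.87% higher, 4.53% lower). NMF called 2 (2.53%), 1 higher and 1 lower, where 7.48% of all genes were called (3.85% higher, 3.63% lower). In each of these 3 comparisons the share called in either direction was below that of all genes, while in ANIT the share called lower was 10.1% against 8.29%. Caerulein, DNP and Roziglitazone called none, as they did of all genes (0.0% in each).

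Between compounds, DMN against DNP, both given in water by mouth at 15 mg/kg, called 1 of the 79 genes where 6.89% of all genes were called, and NMF against Caerulein, both injected in saline, called 1 where 5.49% were. The 1 gene was Atp5if1 in both. Without DMN 2 and the other 2 arrays of doubtful label the first comparison called 2, the second being Ndufs4. It also called 2 without DMN 5, where the second was Cox8b, and without DNP 1, where it was Ndufs4. With the 5′-low arrays left out the comparison called 3, Atp5if1, Ndufs4 and Atp5mk.

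**Figure D1:**
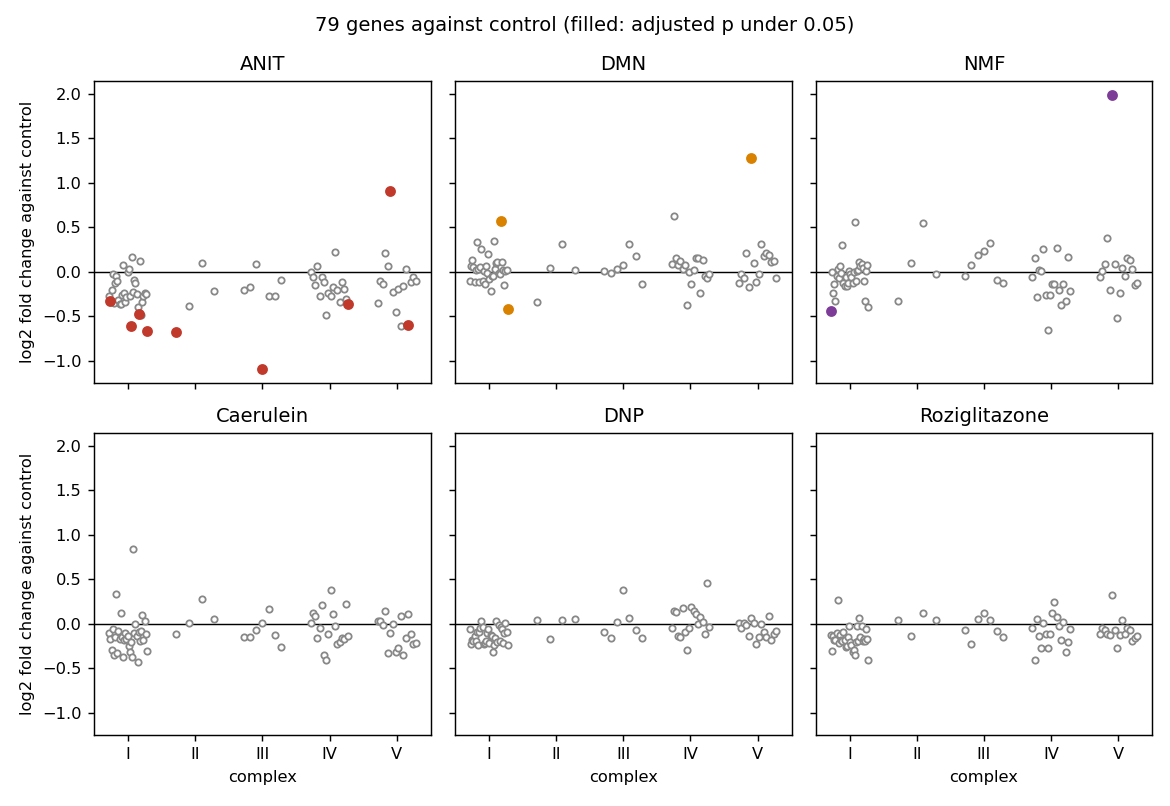
Log2 fold change against control of each of the 79 genes (1 point each), by complex (x axis), in 6 panels for the 6 compounds; filled points are called at an adjusted p under 0.05. The filled points are 9 in ANIT, 3 in DMN and 2 in NMF, and the highest point of each of these 3 panels is Atp5if1 (0.90, 1.28 and 1.99).

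After ANIT, 67 of the 79 genes (84.8%) had a mean below that of control, where 58.9% of all genes did. The median log2 difference over the 79 genes was −0.21, and that over all genes −0.09. The median was −0.26 over the 34 genes of complex I, −0.30 over the 4 of complex II, −0.21 over the 7 of complex III, −0.19 over the 18 of complex IV and −0.13 over the 16 of complex V. With the arrays as deposited the median was thus below control in every complex, and most genes differed by a small amount. Centring each array on its median moved the median of all genes by 0.13 in this comparison, to 0.04, and that of the 79 genes to −0.09. It moved the difference of every gene by that same 0.13, about the size of the complex V median, so the sign of that median depends on the scaling. Such centring cannot change the gap between the median of the 79 genes and that of all genes, which was −0.13. A second quantile normalization made that gap −0.19. Under that centring only Ndufv3 and Atp5if1 were called, and the calls over all genes went from 1165 higher and 1179 lower to 1666 higher and 627 lower. The same centring turned 834 higher and 644 lower calls into 1047 and 339 for DMN, 547 and 516 into 736 and 308 for NMF, 548 and 432 into 928 and 171 for DMN against DNP, and 488 and 293 into 765 and 148 for NMF against Caerulein.

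Averaged over the 75 genes that remained without Atp5if1 and the 3 genes at background, the 5 ANIT arrays lay between −0.48 and −0.05 of the control mean, with a group mean of −0.22 ± 0.16 (SD, n = 5). The 9 control arrays lay between −0.19 and 0.16 (SD 0.11), so the groups overlapped. ANIT 5, one of the 5′-low arrays, was the lowest of all 39 at −0.48. In the other groups the mean was −0.09 ± 0.07 for Caerulein, 0.05 ± 0.13 for DMN, −0.07 ± 0.20 for DNP, −0.04 ± 0.08 for NMF and −0.12 ± 0.17 for Roziglitazone (SD, n = 5 each). Every one of these groups had arrays inside the control range. Without ANIT 5 the ANIT comparison called 3 genes, Sdha, Ndufv3 and Atp5if1, and without control 5 it called 14.

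**Figure D2:**
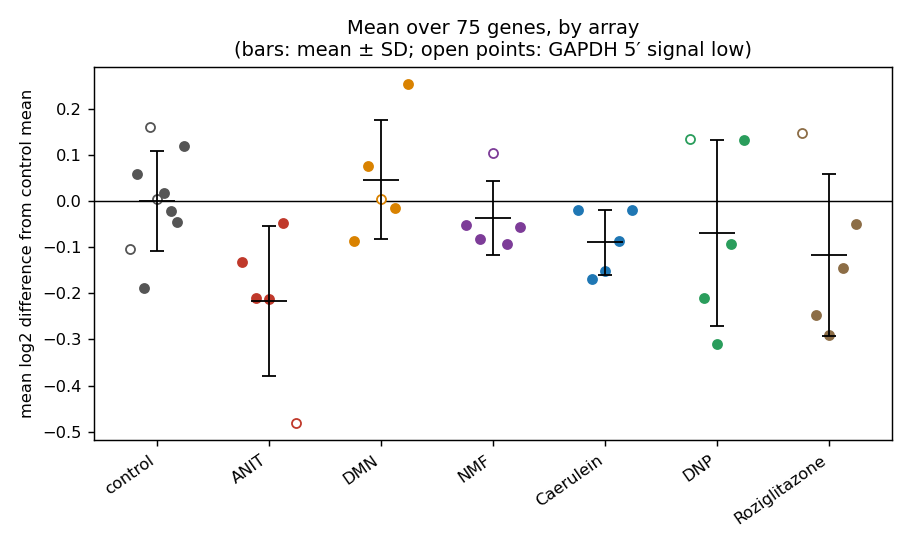
Mean over 75 genes of the log2 difference from the control mean (y axis), 1 point per array in each of the 7 groups (x axis), with the group mean and SD as bars and 5′-low arrays as open points. The ANIT points lie from −0.48 to −0.05 and overlap the control points, which lie from −0.19 to 0.16.

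Of the 34 genes of complex I, 4 fell after ANIT and none rose. Ndufv3, an accessory subunit of the flavoprotein end where NADH binds, had a level of 11.33 in the lowest control array, 11.66 in the median and 12.06 in the highest. The ANIT arrays read 10.85, 11.02, 10.93, 11.22 and 11.10. All 5 lay below all 9 controls, and the difference was −0.66 ± 0.14 (SE; adjusted p = 0.00119), a level 1.58-fold lower. It was −0.56 without the 5′-low arrays. The other probe set of Ndufv3 did not follow: it averaged 9.79 ± 1.06 in ANIT and 9.32 ± 0.41 in control (SD, n = 5 and 9), and with the mean of both probe sets the difference was −0.10 (adjusted p = 0.752).

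Ndufb6, an accessory subunit of the membrane arm, had control levels of 11.05 to 12.02 with a median of 11.64. In ANIT it read 11.20, 11.13, 11.26, 11.19 and 10.08, and 4 of the arrays lay close together near the low end of the controls, with ANIT 5 well below. The difference was −0.62 ± 0.17 (SE; adjusted p = 0.00964). Without ANIT 5 it was −0.39 with an adjusted p of 0.0885, and with arrays centred on their median it was −0.49 (adjusted p = 0.0592). Ndufs3, a core subunit of the arm that reaches into the matrix, and Ndufa11, a membrane subunit, completed the 4, with differences of −0.47 ± 0.15 and −0.33 ± 0.11 (SE; adjusted p = 0.0231 and 0.0314). Without the 5′-low arrays they were −0.36 (adjusted p = 0.0908) and −0.24 (0.120), and the replicate block, which fits the replicate number of the labels as a term, ended both calls (0.103 and 0.120), as did centring on the median (0.149 and 0.273). These last 2 fall outside the naming rule and were named after their values were seen, as were Ndufa4 and Atp5pb below; none of these 4 was called once ANIT 5 was left out.

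The subunit genes called in DMN and NMF were all of complex I. Ndufs4, an accessory subunit of the matrix arm that is needed for a stable complex, had control levels of 10.11 to 11.22 with a median of 10.47. In DMN the arrays read 10.96, 10.82, 11.14, 11.12 and 11.46. All 5 lay above 8 of the 9 controls, the exception being control 5, and the difference was 0.57 ± 0.17 (SE; adjusted p = 0.0313). Leaving out 1 array at a time ended the call in 7 of 14 cases (DMN 3, 4 or 5, control 1, 2, 3 or 6; adjusted p from 0.0507 to 0.0972), as did a fit of only these 2 groups (0.0718), while without the 5′-low arrays, control 5 among them, the difference was 0.65 (adjusted p = 0.00537). The arrays DNP 1 and Roziglitazone 1, also low in 5′ signal, stood at 11.18 and 11.28, above the 4 other arrays of their groups.

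Ndufv3 was also lower in DMN, where the arrays read 11.22, 11.58, 11.03, 11.06 and 11.46. These values overlapped the controls, the difference was −0.42 ± 0.14 (SE; adjusted p = 0.04999, just under the threshold), and the call was kept in only 3 of 14 fits without 1 array and under 6 of 12 other settings. Without the 5′-low arrays it was −0.24 (adjusted p = 0.238). Ndufa1, a small membrane-arm subunit, was lower in NMF, with arrays at 11.76, 11.82, 12.03, 11.74 and 11.73 against controls of 12.02 to 12.61 (median 12.18). Only NMF 3 reached into the control range. The difference was −0.44 ± 0.14 (SE; adjusted p = 0.0479), and 12 of 14 single arrays ended the call when left out (adjusted p up to 0.120), as did 5 of 12 other settings, among them the fit without the 5′-low arrays (−0.41, 0.0670).

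Ndufb8, a membrane-arm subunit, stood out for its spread: its SD within groups was 1.46, the highest of the 79 genes, where the next, Uqcrc2, had 0.63 and the median gene 0.28. Ndufb8 ran from 5.61 to 8.80 (median 7.47) on the 8 arrays low in GAPDH 5′ signal and from 8.80 to 10.72 (median 10.39) on the other 31. The 2 sets of arrays met at 8.80 and did not otherwise overlap. The lowest readings were on DNP 1 (5.61), Roziglitazone 1 (5.73) and control 5 (6.02), the arrays low in the GAPDH 3′ signal as well. Its group means were 9.28 ± 1.12 in ANIT, 9.85 ± 1.32 in DMN, 9.27 ± 2.05 in DNP, 10.06 ± 1.02 in NMF and 9.15 ± 2.04 in Roziglitazone (SD, n = 5 each), which held 1 such array each. Caerulein, which held none, had 10.35 ± 0.31 (SD, n = 5), and control, which held 3, had 9.51 ± 1.498 (SD, n = 9). The Caerulein difference of 0.84 ± 0.76 (SE; limma adjusted p = 0.994) became 0.02 without the 5′-low arrays. A part of RNA length in the other results was not tested beyond the values without these arrays.

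**Figure D3:**
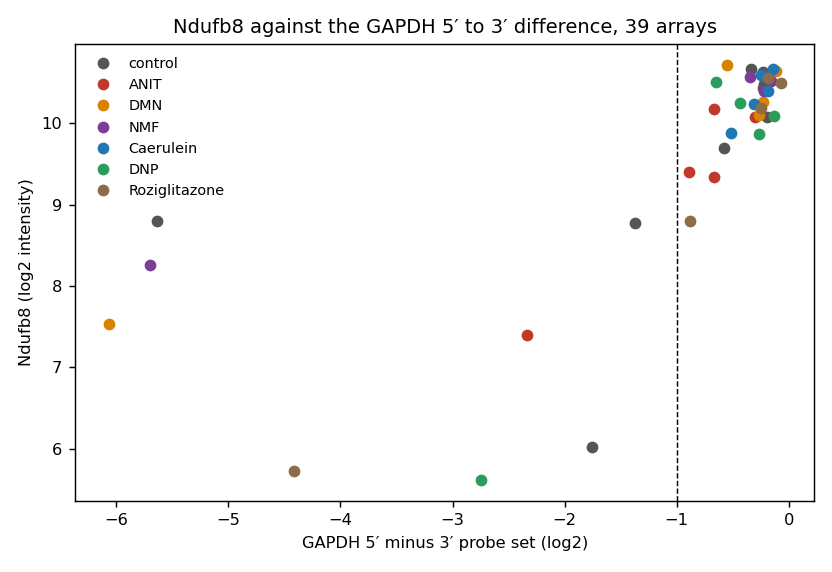
Ndufb8 log2 intensity (y axis) against the log2 difference of the GAPDH 5′ and 3′ probe sets (x axis) on 39 arrays coloured by group; the dashed line marks a difference of −1. The 8 arrays left of the line have Ndufb8 at 8.80 or lower, and the 31 to the right reach up to 10.72.

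Complex II has 4 genes, of which 1 fell after ANIT. Sdha encodes the flavoprotein that oxidises succinate, a step shared with the citrate cycle. Its control levels ran from 10.95 to 12.00 with a median of 11.56. The ANIT arrays read 10.59, 10.83, 11.28, 11.08 and 10.24. Of these, 3 lay below all controls, and ANIT 3 and ANIT 4 lay in the lower control range. The difference was −0.68 ± 0.17 (SE; adjusted p = 0.00432), a level 1.60-fold lower, and no single array ended the call when left out. It was −0.80 without the 3 arrays of doubtful label and −0.52 without the 5′-low arrays, and with arrays centred on their median it was −0.55 (adjusted p = 0.0548). Roziglitazone 2, the array that deviated like ANIT, had 10.84 where the other 4 arrays of its group had 11.60 to 11.78.

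Sdhb, the iron-sulphur subunit, had a mean of 11.33 ± 0.21 in ANIT and 11.72 ± 0.29 in control (SD, n = 5 and 9) and was not called. Sdhc, a membrane anchor of the complex, read 11.73, 11.65, 11.70, 11.65 and 11.78 in NMF and from 9.30 to 11.50 in control, with a median of 11.40. All 5 NMF arrays were above all 9 controls, yet the difference of 0.54 ± 0.22 (SE) had an adjusted p of 0.128. The control array at 9.30 was control 5, and the other 8 controls lay at 11.21 or higher. Without control 5 the difference was 0.31 ± 0.12 (SE; adjusted p = 0.115). Sdhc was singled out after its values were seen.

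Complex III had 7 genes, and 1 of them fell after ANIT. Uqcrc2 encodes a core protein of the complex. Its ANIT levels were 10.48, 9.56, 11.12, 9.50 and 8.36, and its control levels ran from 9.22 to 11.55 with a median of 11.05. ANIT 3 read like the controls, and control 1 like ANIT. The GAPDH 5′ minus 3′ difference was −0.67, −0.67, −0.31, −0.89 and −2.33 on ANIT 1 to 5, with a median of −0.67 against −0.34 in control. The 5 arrays lowest in Uqcrc2 were ANIT 5, control 1 (GAPDH −1.37), ANIT 4, Roziglitazone 2 (−0.88) and ANIT 2. The arrays with the 5 largest GAPDH differences (−2.75 or lower) read 11.04 to 11.61. Without the 5′-low arrays the Uqcrc2 difference was −0.88 (adjusted p = 0.0422), and a part of the smaller GAPDH differences in it was not tested. The difference was −1.09 ± 0.34 (SE; adjusted p = 0.0215), a level 2.14-fold lower, which made it the lowest of the 79 genes in this comparison. It was −1.42 (adjusted p = 8.36e-04) without the 3 arrays of doubtful label, and the call was lost without ANIT 2 (adjusted p = 0.0556), ANIT 4 (0.0585) or ANIT 5 (−0.73, 0.139) and under 4 of 12 other settings. Roziglitazone 2 stood at 9.53 in a group whose other arrays lay at 11.04 to 11.61. A second probe set of Uqcrc2 had an SD of 1.88 in ANIT and 2.59 in control.

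Complex IV had 18 genes, among them isoforms that are known from other tissues. No gene of complex IV rose in any comparison, and 1 fell, Ndufa4 after ANIT by 0.36 ± 0.11 on the log2 scale (SE; adjusted p = 0.0199), with no overlap between ANIT and control arrays. Without the 5′-low arrays the difference was −0.24 (adjusted p = 0.0766), and with arrays centred on their median −0.23 (0.214). Cox4i1, the usual form of subunit 4, had group means between 12.51 and 12.65. Its counterpart Cox4i2, known from lung, had group means of 4.82 to 5.85. Cox6a1 and Cox8a, the liver forms of their subunits, had means of 11.94 to 12.33 and 12.27 to 12.60. Heart and muscle forms had low signals throughout, with Cox6a2 at 4.24 to 4.56, Cox8b at 4.67 to 5.44 and Cox7a1 at 6.55 to 6.96. Cox6b1 had means of 11.48 to 11.91, and the testis forms Cox6b2 and Cox7b2 lay at 4.12 to 4.78 and 3.78 to 4.24, near background. No isoform was called in any comparison, so no group showed a switch between forms that passed the test. Under other settings, Cox6b2, near background, was called in NMF with array weights and in the fit of only these 2 groups. Cox8b, also low in signal, was called in DMN against DNP with array weights and without DMN 5. Of 10 skeletal and heart muscle markers none was called in any comparison.

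Complex V had 15 subunit genes and the inhibitor. Of the subunits, Atp5pb, the b subunit of the stalk that holds the head still, fell after ANIT by 0.60 ± 0.18 on the log2 scale (SE; adjusted p = 0.0180), with 4 of 5 arrays below the control mean. The call was lost without ANIT 5 (−0.38, adjusted p = 0.137), with the replicate block (0.0930), with median centring (0.116) and in the fit of only these 2 groups (0.0790). Atp5f1b, the catalytic beta subunit of the head, had group means of 12.77 to 12.90. Atp5mc3, one of the genes for the c subunit of the rotating ring, had means of 12.61 to 12.93. Atp5f1c, the gamma subunit of the rotor, had the smallest spread within groups of the 79 genes (SD 0.11). None of these 3 was called in any comparison.

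**Figure D4:**
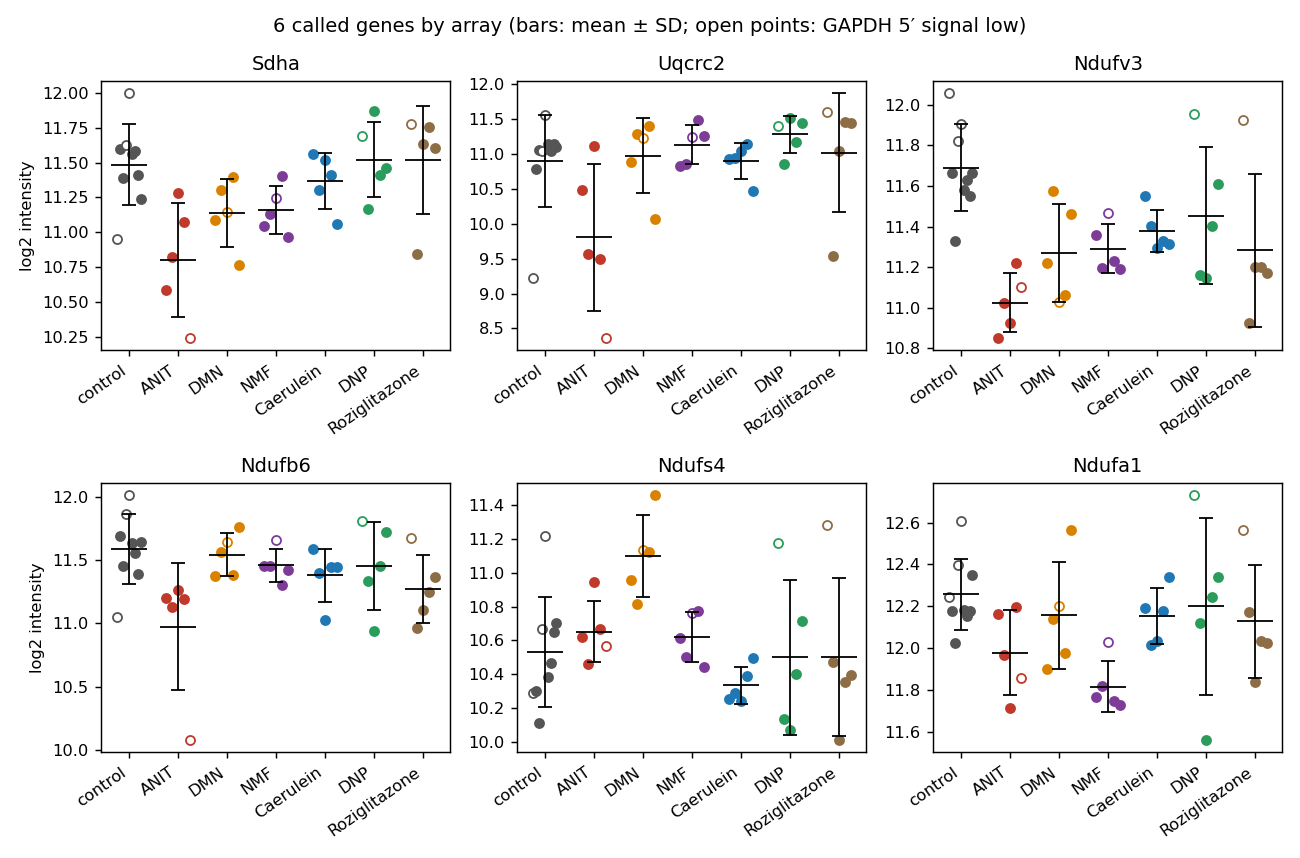
Log2 intensity (y axis, a scale of its own in each panel) of Sdha, Uqcrc2, Ndufv3, Ndufb6, Ndufs4 and Ndufa1, 1 point per array in each of the 7 groups (x axis), with the group mean and SD as bars and 5′-low arrays as open points. Ndufv3 is the panel in which ANIT (10.85 to 11.22) lies below every control (11.33 to 12.06), and in the others 1 or more arrays overlap.

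Atp5if1, by contrast, was higher after all of ANIT, DMN and NMF, and its change was the largest of the 79 genes in DMN and NMF. It encodes the small protein that binds ATP synthase and stops it from running backwards, which would spend ATP, when the membrane potential falls. Control levels ran from 8.12 to 9.29 with a median of 8.82. The NMF arrays read 10.72, 10.50, 10.41, 11.05 and 11.13, all above every control. In DMN the arrays read 9.90, 9.25, 10.27, 10.05 and 10.80, with only DMN 2, an array of doubtful label, inside the control range. The ANIT arrays read 9.71, 9.66, 9.85, 9.91 and 9.27, with only ANIT 5 inside it, just under the highest control.

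The group means were 8.77 ± 0.39 for control (SD, n = 9), 9.68 ± 0.25 for ANIT, 10.05 ± 0.57 for DMN and 10.76 ± 0.32 for NMF (SD, n = 5 each). Against control Atp5if1 rose by 1.99 ± 0.25 in NMF (SE; adjusted p = 5.41e-07), 3.97-fold, by 1.28 ± 0.25 in DMN (adjusted p = 5.54e-04), 2.43-fold, and by 0.90 ± 0.25 in ANIT (adjusted p = 0.00945), 1.87-fold. No single array ended any of these calls when left out. Without the 3 arrays of doubtful label the differences were 1.99, 1.48 and 0.86, and without the 5′-low arrays they were 2.20, 1.34 and 1.13.

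In the other groups the Atp5if1 levels overlapped those of control, with arrays at 8.70, 8.57, 8.71, 8.71 and 8.67 in Caerulein, 9.81, 8.47, 8.10, 8.66 and 9.12 in DNP, and 9.78, 9.68, 8.19, 8.84 and 8.98 in Roziglitazone. The arrays above the control range were DNP 1 and Roziglitazone 1, both low in 5′ signal, and Roziglitazone 2, which deviated like ANIT. The differences from control were −0.10 (95% interval −0.60 to 0.40) for Caerulein, 0.06 (−0.44 to 0.56) for DNP and 0.32 (−0.18 to 0.82) for Roziglitazone, none of them called. Direct comparison gave 2.09 ± 0.28 for NMF against Caerulein (SE; adjusted p = 3.18e-06), 4.26-fold with no overlap, and 1.22 ± 0.28 for DMN against DNP (adjusted p = 0.00470), 2.33-fold with DMN 2 and DNP 1 overlapping. The latter call was lost when only those 10 arrays entered the fit (adjusted p = 0.0830).

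These values come from the brightest of 3 probe sets assigned to Atp5if1, and neither of the others followed it in every group. One of them lay near 5 in every group (4.90 to 5.37). The other averaged 5.43 ± 0.88 in NMF, 6.43 ± 1.12 in control, 6.95 ± 0.62 in ANIT, 8.16 ± 1.55 in Caerulein and 8.62 ± 1.45 in DMN (SD, n = 9 for control and 5 for the rest). Its mean was thus higher in ANIT and DMN than in control, and lower in NMF than in control or Caerulein. With the mean of the 3 probe sets the differences from control were 0.45 in NMF (adjusted p = 0.389) and 0.43 in ANIT (adjusted p = 0.263), and that of NMF against Caerulein was −0.06 (adjusted p = 0.956), while DMN kept its call. RefSeq lists pseudogenes of Atp5if1, and which transcripts the dimmer probe sets read was not tested.

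**Figure D5:**
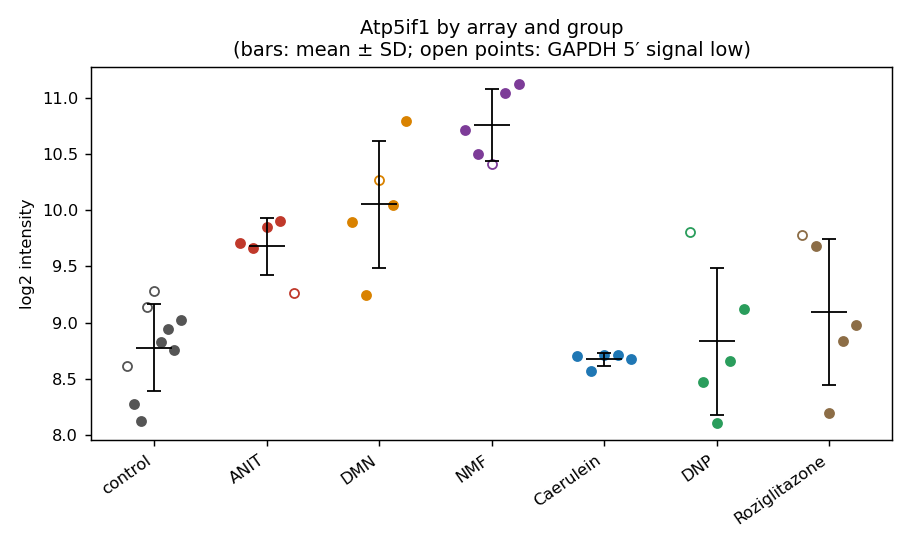
Atp5if1 log2 intensity by its brightest probe set (y axis), 1 point per array in each of the 7 groups (x axis), with the group mean and SD as bars and 5′-low arrays as open points. All 5 NMF points (10.41 to 11.13) lie above every control point (8.12 to 9.29), as do 4 of 5 in ANIT and in DMN.

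In Caerulein, DNP and Roziglitazone no gene of the set was called by limma. At an unadjusted p under 0.05 there were 4 genes in Caerulein (5.06%, against 3.81% of all genes), 2 in DNP (2.53% against 1.40%) and 3 in Roziglitazone (3.80% against 7.34%). The counts of called genes stayed at 0 under each of the 12 other settings tried, array weights and a robust prior among them, and with any single array left out. The medians over the 79 genes were −0.12, −0.09 and −0.13, and over all genes −0.02, 0.04 and −0.06. Below the control mean lay 56, 55 and 63 of the 79 genes (70.9%, 69.6% and 79.7%), where 7627, 5689 and 8710 of all 14217 genes did.

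The genes with the lowest p in these groups show the sizes involved. In Caerulein, Ndufb5, a membrane-arm subunit of complex I, read 11.40, 11.30, 11.42, 11.38 and 11.21 against 11.43 to 12.11 in control, a difference of −0.32 ± 0.14 (SE; limma adjusted p = 0.994). Uqcrq, a small subunit of complex III, gave −0.26 ± 0.12 there (adjusted p = 0.994). In DNP, the group treated with an uncoupler if the usual reading of the label holds, Cox8b gave 0.46 ± 0.21 at a level of 5.44 ± 0.29 (SD, n = 5), close to background, and Ndufa11 gave −0.23 ± 0.11 (SE; adjusted p = 0.999997 for both). In Roziglitazone, Ndufv3 gave −0.40 ± 0.14 and Ndufa11 −0.31 ± 0.11 (SE; adjusted p = 0.579 and 0.586). The 95% interval of a difference reached 0.33 to either side for the median gene, and no difference in these 3 groups passed the test with this number of arrays.

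Over the 79 genes the median difference was 0.03 in DMN and −0.04 in NMF, with −0.06 and −0.05 over all genes. Centring the arrays on their medians moved these to 0.13 and 0.05, which turns the sign for NMF, and all genes to 0.05 in both. In DMN 48 genes lay above the control mean and 31 below (39.2%), where 57.3% of all genes lay below. In NMF 35 lay above and 44 below (55.7%), near the 57.1% of all genes. An unadjusted p under 0.05 was reached by 5 genes in DMN (6.33%, against 23.2% of all genes) and by 10 in NMF (12.7% against 19.6%).

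Other lists hold genes that serve oxidative phosphorylation without being subunits. Of 36 measured assembly factors, 3 rose and 3 fell in ANIT, 2 rose in DMN and 2 rose in NMF, with medians of −0.18, −0.10 and 0.24, where those of all genes were −0.09, −0.06 and −0.05. The shares called were 16.7%, 5.56% and 5.56%, near or below the 16.5%, 10.4% and 7.48% of all genes. Ndufaf4, a complex I factor, rose by 1.34 ± 0.25 and Sdhaf1, a complex II factor, by 1.33 ± 0.17 in ANIT (SE; adjusted p = 2.53e-04 and 2.70e-06), and by 0.81 ± 0.25 and 0.64 ± 0.17 in DMN. Ndufaf4 had like differences in groups without a call, 0.91 in Roziglitazone, 0.76 in DNP and 0.64 in Caerulein. In NMF, Bcs1l, which inserts the iron-sulphur protein of complex III, rose by 0.93 ± 0.15 (SE; adjusted p = 7.69e-05) and Ndufaf7 by 0.62 ± 0.16. Sdha thus fell in ANIT while Sdhaf1, a factor for its complex, rose.

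Of 13 measured genes that bring electrons to the chain, 4 fell in ANIT, 1 rose in DMN and 1 rose in NMF, with medians of −0.23, 0.07 and 0.18. The share called was 30.8% in ANIT and 7.69% in DMN and NMF, against 16.5%, 10.4% and 7.48% of all genes. The single calls in DMN and NMF were thus below or near the share of all genes. Etfdh, which passes electrons from fatty acid oxidation to ubiquinone, fell in ANIT by 0.91 ± 0.20 on the log2 scale (SE; adjusted p = 0.00212), and Coq9, needed to make ubiquinone, by 0.69 ± 0.18 (adjusted p = 0.00644). Gpd2, the mitochondrial glycerol phosphate dehydrogenase, rose in DMN by 0.66 ± 0.21 (adjusted p = 0.0411), and Dhodh, which links pyrimidine synthesis to ubiquinone, rose in NMF by 0.82 ± 0.16 (adjusted p = 7.05e-04). Of 14 citrate cycle genes, 6 fell in ANIT and none was called in DMN or NMF, with medians of −0.16, 0.00 and 0.06. The 6 were 42.9% of the list, where 8.29% of all genes were called lower in ANIT. Pdhb, a subunit of pyruvate dehydrogenase, fell in ANIT by 0.89 ± 0.19 on the log2 scale (adjusted p = 0.00144) and Idh2, the NADP-dependent isocitrate dehydrogenase, by 0.83 ± 0.25 (adjusted p = 0.0189).

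Of 13 carriers, porins and uncouplers, a list that holds Atp5if1 as well, 3 rose in ANIT, 3 in DMN and 2 in NMF, and none fell (medians 0.36, 0.17 and 0.24). These were 23.1%, 23.1% and 15.4% of the list, where 8.19%, 5.87% and 3.85% of all genes were called higher. Slc25a4, which exchanges ADP and ATP across the inner membrane, rose in DMN by 1.05 ± 0.19 (SE; adjusted p = 3.90e-04), and Vdac2, a porin of the outer membrane, rose by 0.36 ± 0.12 in ANIT, 0.52 ± 0.12 in DMN and 0.39 ± 0.12 in NMF. Ucp2, an uncoupling protein, rose by 0.68 ± 0.23 in ANIT (adjusted p = 0.0399). Of 17 regulators of mitochondrial genes, 2 fell in ANIT, 2 rose and 2 fell in DMN, and 1 rose in NMF (medians 0.11, −0.03 and 0.02). The shares called were 11.8%, 23.5% and 5.88%, against 16.5%, 10.4% and 7.48% of all genes, so they were below those of all genes in ANIT and NMF. Polg2, the accessory subunit of the mitochondrial DNA polymerase, fell by 1.51 ± 0.29 on the log2 scale in ANIT (SE; adjusted p = 3.95e-04) and by 1.11 ± 0.29 in DMN (adjusted p = 0.0102). Polrmt, the mitochondrial RNA polymerase, fell by 0.45 ± 0.15 in ANIT (adjusted p = 0.0302), Ssbp1, which binds single-stranded mitochondrial DNA, rose by 0.68 ± 0.22 in DMN (adjusted p = 0.0428), and Tfb2m, a transcription factor of mitochondrial DNA, rose by 0.73 ± 0.20 in NMF (adjusted p = 0.0148). Of 73 mitochondrial ribosomal proteins, 4 rose in ANIT, 4 in DMN and 13 in NMF, and none fell. These were 5.48%, 5.48% and 17.8%, where 8.19%, 5.87% and 3.85% of all genes were called higher, so the count exceeded the background in NMF and not in ANIT or DMN. Mrpl17 rose by 0.98 ± 0.19 and Mrpl55 by 0.74 ± 0.14 in NMF (SE; adjusted p = 5.27e-04 and 2.93e-04). Their medians were −0.02 in ANIT, 0.12 in DMN and 0.32 in NMF. Against Caerulein, NMF had 12 of 73 mitochondrial ribosomal proteins and 6 of 36 assembly factors called higher and none of either lower. Of all 14217 genes, 488 were called higher and 293 lower in that comparison (5.49% in both directions together). For all 6 lists the Caerulein, DNP and Roziglitazone comparisons had 0 calls by limma.

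Markers of other cells were called in some of the groups, and the share of each list is set against that of all genes. In ANIT, 2 of 5 cholangiocyte markers rose (Epcam by 1.23, Cldn7 by 1.11) and Krt19 fell, and their summed intensity ran from 741 to 1674 against 566 to 1042 in control. Endothelial markers had 2 of 6 lower there, with a sum of 2125 to 3956 against 2526 to 7014, stellate cell markers 1 of 8 lower, with 2791 to 6816 against 4054 to 8452, and macrophage markers 1 of 9 higher and 1 lower, with 11064 to 15421 against 9692 to 14373. None of 5 neutrophil markers was called in ANIT, with a sum of 477 to 2799. The shares called in ANIT were 60.0% of cholangiocyte, 33.3% of endothelial, 12.5% of stellate cell and 22.2% of macrophage markers, against 16.5% of all genes. In DMN, 4 of 5 neutrophil markers rose, with S100a8 up by 2.17, and their sum ran from 327 to 6999 against 345 to 1126 in control. Endothelial markers had 3 of 6 lower in DMN, with a sum of 2464 to 4259, stellate cell markers 1 of 8 lower, and macrophage and cholangiocyte markers 1 higher and 1 lower each. In NMF, 3 of 9 macrophage markers and 3 of 8 stellate cell markers fell, with sums of 7450 to 13164 and of 2523 to 3231, and 1 cholangiocyte marker, Epcam, rose by 1.28. Hepatocyte markers had 1 of 11 higher in ANIT, 1 lower in DMN and 2 lower in NMF, and their sums in these groups (133969 to 147396, 126146 to 151195 and 130331 to 140863) lay within the control range of 114947 to 152427. The shares called were 9.09%, 9.09% and 18.2%, against 16.5%, 10.4% and 7.48% of all genes. The medians of the sums were 141633, 137765 and 136209, below the 150742 of control. Every ANIT and NMF array lay below that control median. The median log2 differences of the 11 genes were −0.01, −0.06 and −0.04, where those of all genes were −0.09, −0.06 and −0.05. Of 5 brown fat markers, Cidea rose in ANIT, DMN and NMF by 1.61, 1.03 and 1.34, and Adipoq fell in ANIT. The part of these cells in the results above was not tested.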

How the data were processed

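The 39 arrays, 1 for each rat, were grouped by their labels (9 control, 5 for each of 6 compounds). The authors deposited probe set intensities on a linear scale (5.4 to 23152.1, with array means of 348 to 363). RMA and the affy package are named per the submitters' processing notes, with no version or step back from a log scale. Log2 was taken here, which the planned test had assumed as deposited. Of 31099 probe sets, 20826 carried 1 gene symbol, brought up to date through RefSeq for 20758; 436 with several symbols, 9780 with none and 57 controls were left out. The probe set with the highest mean stood for each of 14217 genes, with no filter on dim genes. Symbols follow the array's annotation.

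In R 4.3.3, limma 3.58.1 fitted 1 mean for each group to the 39 arrays together (functions lmFit, contrasts.fit and eBayes), and p-values were adjusted by Benjamini-Hochberg over all genes of a comparison. The fit was tested on simulated data. Arrays have no read depth, so their number limits the precision. Genes, lists and comparisons were chosen with earlier results of these data known. Named were all called genes of a comparison, or the 4 largest falls and 4 largest rises where over 8 were called, the 2 lowest p where none was, tissue isoforms, and the genes with the highest and lowest mean of each complex; in other lists, the 2 largest called changes. Alternatives were the replicate block, median centring, a second quantile normalization, log2 of intensity plus 16, a filter on the dimmest 30% of genes, other uses of the probe sets, a trended robust prior, fits of 2 groups, array weights, and arrays left out.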

Additional observations from a re-analysis of the deposited data

Results flagged for a closer look

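For 25 genes, those of the naming rule and Ndufb8, each group was searched for an array whose gap to the nearest other array was large for the range of the group (Dixon's criterion at its 95% value). Other genes named in the text, among them Sdhc, Atp5pb, Ndufa4, Ndufs3 and Atp5f1c, were not searched. Arrays such as control 5 for Sdhc (9.30) are therefore not in the list. Of 175 groups, 18 had such an array, and chance alone gives about 1 group in 20. The log2 levels follow. Ndufb8 was far below the rest of its group in DMN 3 (7.54), DNP 1 (5.61), NMF 3 (8.25) and control 5 (6.02), all of them arrays low in GAPDH 5′ signal. Control 5 was also low in Atp5f1b (12.21), Cox4i1 (12.10) and Sdhb (11.02). In ANIT 5, another such array, Cox6a1 (11.18), Ndufa11 (11.16) and Ndufb6 (10.08) were low. Control 1 was low in Atp5mc3 (12.35) and Uqcrc2 (9.22). Roziglitazone 1 was high in Ndufb5 (11.93) and Ndufv3 (11.93), and NMF 3 was high in Cox6b1 (12.09). Roziglitazone 2, whose GAPDH difference of −0.88 was just above the limit of −1, was low in Sdha (10.84) and Uqcrc2 (9.53). Caerulein 5 was high in Cox4i2 (6.13), a gene of low signal. In all, 15 of the 18 were on arrays low in GAPDH 5′ signal. A part of RNA quality in these values was not tested.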

How the results depend on the processing

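The counts of called genes moved with the setting in the comparisons that called any. For ANIT the count of 9 became 5 with the replicate block, 2 with arrays centred on their median and 23 with array weights, and ran from 3 (without ANIT 5) to 14 (without control 5) with 1 array left out. For DMN the count of 3 became 1 in the fit of 2 groups and ran from 1 to 3 without 1 array. For NMF the count of 2 became 1 with the replicate block, median centring, a second quantile normalization, the mean of a gene's probe sets or every probe set on its own, and 5 with array weights, and ran from 1 to 3 without 1 array. For DMN against DNP the count of 1 became 5 with median centring, 2 with the filter on dim genes, 0 in the fit of 2 groups, 3 with array weights, 2 without the 3 arrays of doubtful label and 3 without the 5′-low arrays, a setting chosen after seeing the data, and ran from 1 to 2 without 1 array. For NMF against Caerulein the count of 1 became 0 with the mean of a gene's probe sets, where the difference of Atp5if1 reversed to −0.0614. Across the 7 groups the count of 5 became 20 with array weights and 3 without the 5′-low arrays, and ran from 2 to 8 without 1 array. The labels do not say whether same-numbered arrays shared anything beyond the number. Over the 8 comparisons 19 of 40 pairs had deviations that correlated above 0.1, and in no comparison did all 5. In NMF against Caerulein 6 of 10 arrays correlated best with their own number. This was so for 5 of 10 in ANIT and in Caerulein against control, 4 of 10 in DNP, and 0 to 2 of 10 in the other comparisons. What same-numbered arrays had in common was not tested. The replicate block ended the calls of Uqcrc2 (adjusted p = 0.115), Atp5pb (0.0930), Ndufa11 (0.120) and Ndufs3 (0.103) in ANIT, Ndufs4 (0.0657) in DMN and Ndufa1 (0.0710) in NMF. Counts under the settings not given here lay within 1.5 times the count reported, and the 0 counts of Caerulein, DNP and Roziglitazone stayed at 0. The cause of these moves was not tested.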
